A study of Mus musculus with 80 samples.

Results

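The 20 unirradiated female libraries of this mouse heart series were compared by diet: 10 from mice labelled with a Western diet and 10 from mice labelled with a normal diet, of 80 libraries in all. They were chosen by their labels and no measured value entered the choice. All 20 are poly-A selected RNA sequencing libraries of left ventricular tissue from C57Bl/6J females in the Sham arm, with a dose of 0 cGy. The other 60 libraries are the 20 unirradiated males on the same diets, and females and males on a normal diet that received a mixed field (50 cGy) or gamma rays (100 cGy). The labels give no age, no composition or duration of the diet and no hour of collection. Nor do they say that each library came from a separate animal, so the p-values measure only the spread between libraries. That spread was estimated for each gene over all 80 libraries in 1 fit. In each sex and group, 5 libraries have title numbers between 1 and 20 and 5 have title numbers between 21 and 40, called here the first and the second run. The labels do not say what separates the runs, and a term for the run was part of the test.

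The genes that differed between the diets included several of the circadian clock, and the mechanism of that clock is given first as background. BMAL1 pairs with CLOCK or with its relative NPAS2, and the pair binds E-boxes and switches on the Period, Cryptochrome and Ciart genes, whose products then inhibit the pair. REV-ERB and ROR receptors compete at ROR elements, among others in the gene of BMAL1, and the output factors DBP, TEF and HLF act through D-boxes while NFIL3 opposes them there. In the heart this loop runs in the cardiomyocytes themselves and follows the light cycle and feeding. The BMAL1 gene and the Period and Dbp genes peak at different times of day. The labels give no hour of collection, so differences by diet and by hour cannot be told apart in these genes. Whether the groups differ in that hour was not tested.

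The totals lay between 14432521 and 19746067 counts per library, and normalisation factors between 0.912 and 1.054. Transcripts of the mitochondrial genome took 24.3% ± 2.15 of the counts on the normal diet and 25.4% ± 2.09 on the Western diet (SD, n = 10). The 8 cardiomyocyte markers, such as Myh6, Myl2 and Tnnt2, summed to between 51810 and 67040 CPM (counts scaled to each library's adjusted total) in every library, as the tissue label says, and none of them was called different between the diets. Xist was between 102 and 201 CPM and the Y-linked Ddx3y was 0 in all 20. The 2 Western libraries replicate 6 and replicate 7, both of the second run, stood apart: their summed calcium handling and ion channel genes were 10420 and 12540 CPM against 16140 to 23000 in the other 18. The normal diet libraries replicate 9 and replicate 10, also of the second run, held high values for dividing cells and for macrophages. Values without these libraries are given beside some of the results. For several of the called genes they are given where the leaving out of libraries is described.

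Of 15879 genes tested, 28 differed between the diets at an adjusted p under 0.05, which is 0.176% of all genes tested (edgeR's quasi-likelihood test with Benjamini-Hochberg adjustment). On the Western diet 14 were higher and 14 were lower, 0.0882% of the genes in each direction. Of these 28, 8 belonged to the 27 tested genes of the 3 clock lists: the activators Bmal1 and Npas2 were higher, and the repressors Per2 and Ciart and the outputs Dbp, Tef, Usp2 and Tspan4 were lower. The lists were chosen with earlier results of these data known, so this count is only a description. The median size of the 28 changes was 0.545 on the log2 scale, with a median standard error of 0.113, and they ran from 0.247 to 2.08. Over all genes the median change was 0.0016 and 50.4% of changes were positive. At an unadjusted p under 0.05 there were 1476 genes, 772 higher and 704 lower. In none of the 15879 genes did all 10 Western libraries lie outside the range of all 10 normal libraries, so the share of genes with groups that did not overlap was 0%.

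Bmal1 (chr7:112806152-112914735 in GRCm39), the partner without which the activating pair does not form, rose most among the clock genes. Its lowest, median and highest levels were 0.984, 2.60 and 5.62 CPM on the normal diet and 4.25, 12.2 and 14.9 CPM on the Western diet. The ranges overlapped in 2 Western libraries: 8 of 10 Western libraries were above every normal library, and all 10 were above the normal median. The change was 1.79 ± 0.28 on the log2 scale (SE, adjusted p = 7.99e-05). Npas2 (chr1:39232705-39402323), which can take the place of CLOCK, went from 0.943, 1.68 and 3.20 CPM to 1.19, 4.69 and 7.83 CPM. Its ranges overlapped more, with 6 of 10 Western libraries above every normal library, and it rose by 1.27 ± 0.25 (adjusted p = 0.00837). Clock itself was measured at 19.9, 25.7 and 42.3 CPM on the normal diet and 27.1, 34.9 and 58.5 CPM on the Western diet, a difference of 0.45 ± 0.11 that did not pass (adjusted p = 0.0708). All 10 Western libraries were above the normal median of Clock, but only 2 were above every normal library. Rora, a receptor that activates Bmal1, showed no called difference, at 0.07 ± 0.13 (adjusted p = 0.915). In all, 2 of 5 activators were called higher and none lower, with a median of 0.455.

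Per2 and Ciart were the 2 of 11 clock repressors that were called, both lower, and the median of the 11 was -0.337. Ciart (chr3:95785815-95789991), which encodes the repressor CHRONO, was measured at 10.6, 15.3 and 20.4 CPM on the normal diet and 3.53, 7.17 and 13.04 CPM on the Western diet. All 10 Western libraries were below the normal median and 7 were below every normal library. Ciart fell by 1.02 ± 0.22 (log2 change and SE, adjusted p = 0.0252). Per2 (chr1:91343700-91387069), whose product is a core inhibitor of the activating pair, went from 15.4, 34.4 and 50.7 CPM to 10.1, 16.9 and 36.1 CPM. It fell by 0.82 ± 0.19 (adjusted p = 0.0385) with a broad overlap: 9 of 10 Western libraries were below the normal median, but only 3 were below every normal library. The highest Western value, 36.1 CPM, was replicate 5 of the first run. The other Period and Cryptochrome genes pointed downwards without passing: Per3 was -0.50 ± 0.17 (adjusted p = 0.341), Cry2 -0.40 ± 0.11 (0.172), Per1 -0.34 ± 0.18 (0.58) and Cry1 -0.32 ± 0.14 (0.441). Bhlhe41, which competes for E-boxes, was -0.39 ± 0.11 (0.146). The REV-ERB genes did not pass, with Nr1d1 at -0.11 ± 0.13 and Nr1d2 at -0.15 ± 0.11. Nr1d1 pointed in opposite directions in the runs, -0.49 ± 0.17 in the first and 0.29 ± 0.17 in the second, a difference of 0.78 ± 0.24 that did not pass over all genes (unadjusted p = 0.00169). Nfil3 was the single repressor with a positive difference, 0.47 ± 0.14 (adjusted p = 0.208).

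Among the 11 output genes 4 were called, all lower, with a median of -0.455 over the 11. This list was chosen with earlier results of these data known. Tspan4 (chr7:141055138-141073340), a tetraspanin membrane protein, had the smallest adjusted p of all genes. Its levels were 19.96, 30.96 and 42.8 CPM on the normal diet and 15.7, 18.8 and 26.1 CPM on the Western diet. Every Western library was below the normal median, 6 were below every normal library, and it fell by 0.63 ± 0.09 (adjusted p = 2.94e-06). Dbp (chr7:45354512-45359627), a D-box activator driven directly by the BMAL1 pair, went from 78.9, 126 and 181 CPM to 43.2, 58.5 and 131 CPM. It fell by 0.92 ± 0.18 (adjusted p = 0.00837), with 7 Western libraries below every normal one and the other 3, replicates 8, 9 and 10 of the second run at 131, 86.3 and 119 CPM, inside the normal range. Tef (chr15:81686622-81711064), of the same family, went from 176, 221 and 289 CPM to 116, 146 and 215 CPM. Its fall of 0.52 ± 0.10 passed (adjusted p = 0.00909), and again 7 Western libraries lay below every normal library. Usp2 (chr9:43978264-44006924), a deubiquitinating enzyme with a strong daily rhythm in many tissues, went from 130.0, 157 and 191 CPM to 82.7, 107 and 169 CPM. It fell by 0.45 ± 0.10 (adjusted p = 0.0245), again with 7 Western libraries below the lowest normal value. Hlf, the third member of the Dbp family, was -0.73 ± 0.19 and just missed the threshold (adjusted p = 0.0784). Wee1, a kinase that holds back mitosis, was -0.50 ± 0.19 (0.385), and Klf15 was -0.06 ± 0.09 (0.869).

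**Figure D1:**
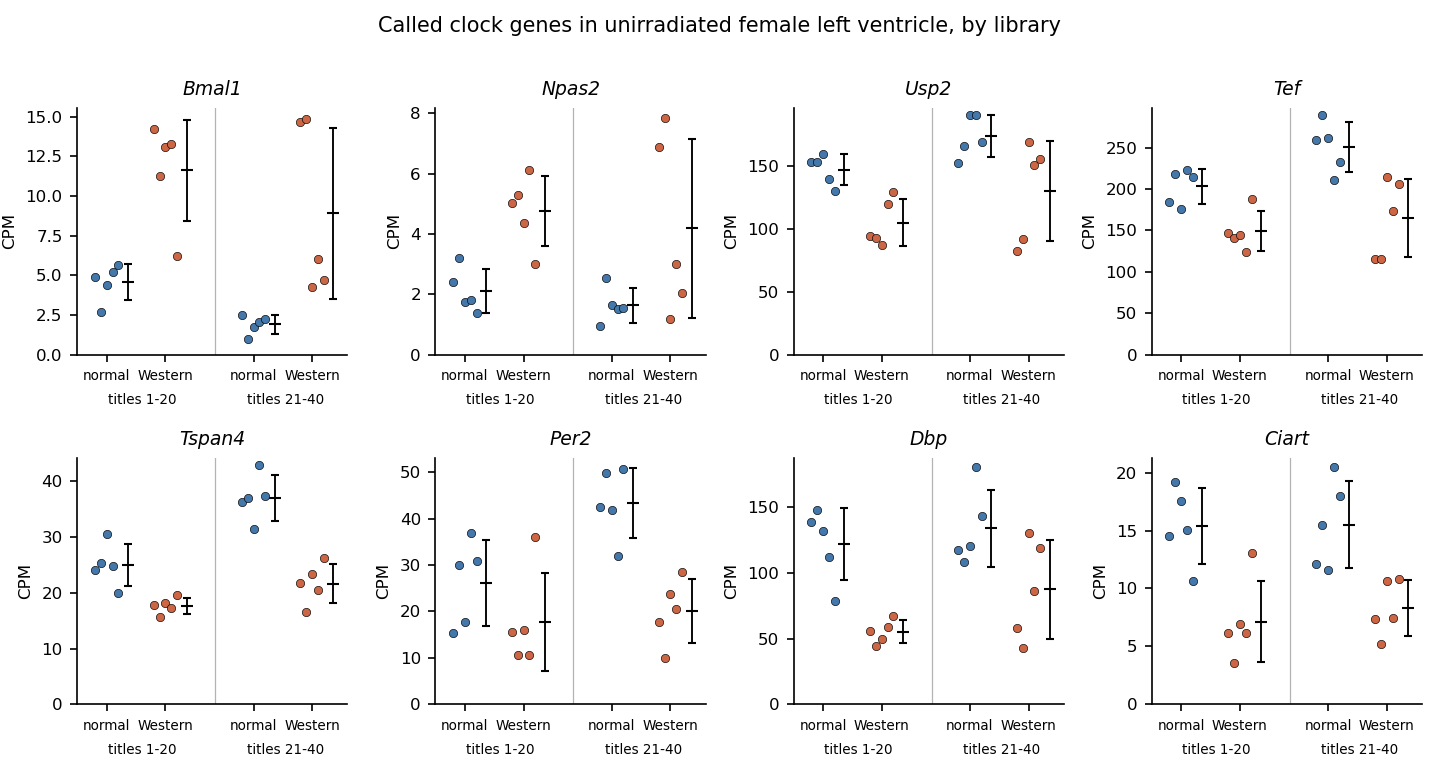
Level of the 8 called clock genes in CPM (vertical axis, from 0) in each of the 20 female libraries, split by diet and by title number (1-20 and 21-40). Points are libraries and bars the mean ± SD of 5. Bmal1 and Npas2 sit higher and the other 6 sit lower on the Western diet, and for Bmal1 the second run splits into 2 Western libraries at 14.7 and 14.9 CPM and 3 between 4.25 and 6.04.

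The promoters of these genes are shown because the loop described above acts through short motifs in them. For the 8 called clock genes the 250 bases before and 50 bases after the start of the canonical transcript (GENCODE, GRCm39) were searched on both strands for the E-box CACGTG, the D-boxes TTATGTAA and TTACGTAA and the ROR element TAGGTCA. The motifs do not overlap each other in the printed windows, and capitals mark the matches, which are written on the gene's strand from 5′ to 3′. No match in a window says only that these letters are not in it. Printed are Bmal1 (chr7:112806393-112806692, plus strand), Dbp (chr7:45354262-45354561, plus), Tef (chr15:81695365-81695664, plus), Usp2 (chr9:43978014-43978313, plus), Ciart (chr3:95789507-95789806, minus) and Per2 (chr1:91386997-91387296, minus):
Bmal1: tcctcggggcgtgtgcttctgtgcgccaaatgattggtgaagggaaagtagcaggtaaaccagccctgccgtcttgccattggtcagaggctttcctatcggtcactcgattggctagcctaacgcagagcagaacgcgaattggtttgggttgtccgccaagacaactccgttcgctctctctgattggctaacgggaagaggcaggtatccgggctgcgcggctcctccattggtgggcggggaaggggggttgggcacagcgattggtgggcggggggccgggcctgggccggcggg
Dbp: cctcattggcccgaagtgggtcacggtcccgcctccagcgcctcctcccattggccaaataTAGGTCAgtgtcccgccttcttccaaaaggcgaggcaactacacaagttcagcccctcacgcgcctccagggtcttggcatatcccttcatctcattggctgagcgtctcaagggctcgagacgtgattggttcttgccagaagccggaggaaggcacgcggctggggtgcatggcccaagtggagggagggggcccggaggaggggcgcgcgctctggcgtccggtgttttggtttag
Tef: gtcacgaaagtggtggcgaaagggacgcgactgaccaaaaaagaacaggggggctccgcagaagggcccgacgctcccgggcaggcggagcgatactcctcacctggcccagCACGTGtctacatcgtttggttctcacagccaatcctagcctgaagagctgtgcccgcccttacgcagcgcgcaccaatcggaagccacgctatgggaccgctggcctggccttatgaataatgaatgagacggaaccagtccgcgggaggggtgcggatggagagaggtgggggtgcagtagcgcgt
Usp2: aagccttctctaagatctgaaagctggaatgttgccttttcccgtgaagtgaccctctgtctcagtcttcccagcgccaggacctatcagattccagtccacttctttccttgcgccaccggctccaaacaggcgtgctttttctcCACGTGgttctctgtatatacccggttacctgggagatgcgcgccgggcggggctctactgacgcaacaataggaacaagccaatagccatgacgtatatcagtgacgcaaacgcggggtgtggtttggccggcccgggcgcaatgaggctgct
Ciart: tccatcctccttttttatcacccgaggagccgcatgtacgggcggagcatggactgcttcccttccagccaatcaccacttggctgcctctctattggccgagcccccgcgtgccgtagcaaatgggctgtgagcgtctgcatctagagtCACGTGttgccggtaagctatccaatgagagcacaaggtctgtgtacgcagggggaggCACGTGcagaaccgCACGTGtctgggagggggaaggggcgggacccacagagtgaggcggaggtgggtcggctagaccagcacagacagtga
Per2: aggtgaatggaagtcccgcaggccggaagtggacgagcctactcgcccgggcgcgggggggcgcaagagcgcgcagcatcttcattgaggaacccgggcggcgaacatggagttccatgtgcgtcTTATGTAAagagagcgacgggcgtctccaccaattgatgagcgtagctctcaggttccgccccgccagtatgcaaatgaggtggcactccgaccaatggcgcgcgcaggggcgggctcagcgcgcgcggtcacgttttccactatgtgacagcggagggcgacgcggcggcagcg

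An E-box was found in 3 of the 8 windows: at position -138 from the start in Tef, at -104 in Usp2, and at -100, -42 and -28 in Ciart. Of the 13591 promoters of tested protein-coding genes, 9.82% hold this E-box. Per2 held a TTATGTAA D-box at -125, a motif present in 0.64% of those promoters, and Dbp a ROR element at -189, present in 2.03%. TTACGTAA was in none of the 8 and in 0.14% of all. The windows of Bmal1, Npas2 and Tspan4 held none of the 4 motifs. The 3 genes with an E-box in the window fell, but so did every other gene of the 8 except Bmal1 and Npas2. Whether the motif bears on the direction was not tested.

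The changes of the 28 genes had the same sign in the 2 runs, as did 57.3% of all genes tested. This is a description, since the 28 were called on both runs together. Their median size was 0.542 in the first run, where 5 Western libraries face 5 normal ones, and 0.57 in the second. Only 3 genes of the 15879 separated the diets fully within both runs, and all 3 were among the 28. Bmal1 was the 1 gene in which every Western library was above every normal library of its own run (0.0063% of all genes): the normal range was 2.68 to 5.62 CPM in the first run and 0.984 to 2.51 in the second, and the Western range 6.23 to 14.2 and 4.25 to 14.9. Tspan4 and the immediate early gene Ier3 were the 2 for which every Western library was below (0.0126%). Tspan4 ran from 19.96 to 30.5 CPM in normal and from 15.7 to 19.6 in Western libraries of the first run, and from 31.4 to 42.8 and from 16.5 to 26.1 in the second. Ier3 ran from 29.4 to 40.3 against 23.1 to 28.9 CPM in the first run and from 42.2 to 64.5 against 32.6 to 41.8 in the second. Both genes were higher in the second run, Tspan4 by 0.48 and Ier3 by 0.55 on the log2 scale, and their ranges overlap when the runs are pooled. In females the runs themselves differed in 3683 genes (23.2% of those tested), and 20 of the 28 were among them. Bmal1 fell by 1.10 on the log2 scale from the first run to the second.

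**Figure D2:**
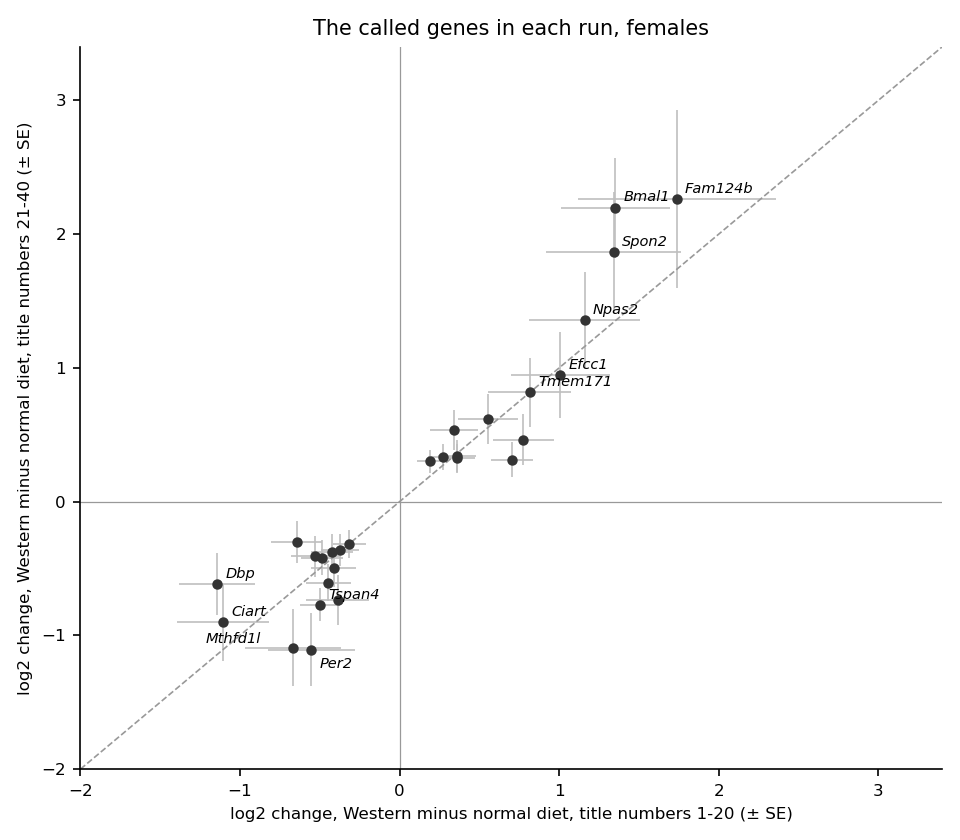
Log2 change, Western minus normal diet, of the 28 called genes in the libraries with title numbers 1-20 (horizontal) and 21-40 (vertical), with SE bars and the line of equality. All 28 lie in the lower left or upper right of the plot, where the signs agree, and Bmal1, at 1.35 and 2.20, is among those with the widest gap between the runs.

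The difference between the runs in the diet effect was tested gene by gene, and 0 of 15879 genes passed (0% called, edgeR), with 485 at an unadjusted p under 0.05. Nearest to the threshold was Fgfbp3, a carrier protein for fibroblast growth factors, at 2.28 ± 0.47 (adjusted p = 0.128). In the first run its normal libraries lay between 1.84 and 4.59 CPM and its Western libraries between 0.819 and 1.70 CPM. In the second run the normal libraries lay between 1.67 and 3.11 CPM and the Western libraries between 2.13 and 5.84 CPM. The Western libraries were thus below the normal ones in the first run, with no overlap, and overlapped them in the second. DESeq2 called this 1 gene and limma voom none.

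The other 20 called genes are given by role. Spon2 (chr5:33353751-33378075), a secreted protein of the extracellular matrix, was measured at 0.817, 1.92 and 3.39 CPM on the normal diet and 1.94, 5.78 and 10.8 CPM on the Western diet. Of 10 Western libraries 7 were above every normal library, and Spon2 rose by 1.62 ± 0.32 (adjusted p = 0.00837). It was the 1 member of the 38 collagen and matrix genes that was called. Adam19, a membrane-bound metalloprotease, rose by 0.61 ± 0.14 (adjusted p = 0.0385). Its levels were 13.4, 20.6 and 27.3 CPM on the normal diet and 21.98, 31.5 and 41.5 CPM on the Western diet, with 6 Western libraries above every normal library. Abra, a muscle protein that binds actin and promotes transcription through serum response factor, went from 27.3, 42.7 and 52.8 CPM to 46.0, 61.3 and 82.2 CPM. It rose by 0.59 ± 0.13 (adjusted p = 0.0341), with 8 Western libraries above every normal one.

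The genes described next encode enzymes, carriers and other proteins of lipid and mitochondrial metabolism, grouped after their values were seen. Dgat2 (chr7:98802491-98831991), which catalyses the last step of triglyceride synthesis, was measured at 361, 420 and 496 CPM on the normal diet and 248, 323 and 416 CPM on the Western diet. All 10 Western libraries were below the normal median and 7 were below every normal library. Dgat2 fell by 0.37 ± 0.08 (adjusted p = 0.0341) and was the 1 called member of the 19 tested genes of fatty acid uptake and lipid droplets. Mid1ip1, which helps acetyl-CoA carboxylase to polymerise, fell by 0.47 ± 0.11 (adjusted p = 0.0387). The 2 mitochondrial carriers of pyrimidine nucleotides moved apart. Slc25a36 rose by 0.34 ± 0.08 (adjusted p = 0.0341) and Slc25a33 fell by 0.48 ± 0.11 (adjusted p = 0.0405), the latter with 8 Western libraries below every normal one. Of single genes, Mthfd1l, of the mitochondrial folate pathway, fell by 0.90 ± 0.21 (adjusted p = 0.0385), Coq10b, which binds coenzyme Q, fell by 0.40 ± 0.09 (0.0385), and Mtrfr, a factor that rescues stalled mitochondrial ribosomes, fell by 0.32 ± 0.07 (0.0341). Mtrfr was measured at 12.6, 14.7 and 18.5 CPM on the normal diet and 9.87, 11.97 and 13.4 CPM on the Western diet. With 9 of 10 Western libraries below every normal library, it was the gene among the 28 with the fewest overlapping Western libraries. Slc7a6, an amino acid exchanger of the cell surface, rose by 0.44 ± 0.11 (adjusted p = 0.0461).

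Ier3 (chr17:36132568-36133815), a stress-inducible regulator of cell survival, fell by 0.45 ± 0.10 (adjusted p = 0.0252) and was the 1 called member of 20 immediate early genes. Over both runs it was measured at 29.4, 41.2 and 64.5 CPM on the normal diet and 23.1, 30.7 and 41.8 CPM on the Western diet. Ypel2, a member of the yippee-like family, went from 12.6, 15.9 and 21.4 CPM to 18.95, 22.5 and 27.9 CPM. All Western libraries were above its normal median, 7 were above every normal library, and it rose by 0.50 ± 0.10 (adjusted p = 0.00632). The centrosomal gene Cep85 rose by 0.30 ± 0.07 (adjusted p = 0.029), with 8 Western libraries above every normal one, and the RNA-binding gene Rbms1 by 0.25 ± 0.06 (0.0385). Etl4 rose by 0.35 ± 0.08 (0.0385), Efcc1 by 0.98 ± 0.22 (0.0341) and Tmem171 by 0.82 ± 0.19 (0.0341). Cys1, which encodes the cilium-associated protein cystin, fell by 0.57 ± 0.13 (0.0385). Fam124b showed the largest rise, 2.08 ± 0.48 (adjusted p = 0.0341), at the lowest level: 0.213 ± 0.105 CPM on the normal and 0.856 ± 0.421 CPM on the Western diet (SD, n = 10). It lies under the mean of 1 CPM set for the genes to be named and is given because it is one of the 28.

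Exons of 19 of the 28 genes overlap another annotated gene, and in 8 of them 1 other gene covers 10% or more of the exon bases. Reads from the shared bases cannot be told apart unless the genes lie on opposite strands and the counting used strand. Whether it did is not given in the sources used here. Coq10b shares 5.67% of its exon bases with Gm17971 on the same strand. Polr2l, on the opposite strand, overlaps 23.8% of the exon bases of Tspan4 and was itself at -0.17 (adjusted p = 0.694). Sphk2 overlaps 15.5% of those of Dbp and was at 0.15 (0.514). The gene models Gm53549, Gm66231 and Gm14493 overlap 12.7% of Npas2, 34.8% of Ier3 and 21.9% of Mid1ip1.

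The gene lists of fuel use held few called genes. None of the 27 genes of fatty acid oxidation passed, but 25 were negative, with a median of -0.089 against 0.0016 over all genes. The 2 of smallest p were the carnitine acetyltransferase gene Crat at -0.16 ± 0.07 (adjusted p = 0.475) and Echs1 at -0.12 ± 0.06 (0.56). Without Western replicates 6 and 7, 20 of 27 were negative and the median was -0.022. Of 23 genes of glucose uptake and glycolysis, none passed and 21 were negative, with a median of -0.092. The exception with the smallest p was Pfkfb2, which makes the activator of phosphofructokinase in heart, at 0.53 ± 0.14 (adjusted p = 0.121). Its means were 46.1 ± 9.53 CPM on the normal and 66.6 ± 15.1 CPM on the Western diet. None of the 13 tested fasting-type PPAR targets, 18 genes of lipogenesis, 24 of cholesterol synthesis and uptake, 19 of insulin signalling and 6 of ketone body metabolism passed. Lss, an enzyme of cholesterol synthesis, was at 0.42 ± 0.12 (adjusted p = 0.184) and the cholesterol exporter Abcg1 at -0.63 ± 0.19 (0.225). Without normal replicates 9 and 10 Abcg1 was at -0.28 ± 0.19 (0.755). The 13 protein genes of the mitochondrial genome had a median of 0.071 with 12 positive, and the 42 tested nuclear genes of the respiratory chain a median of -0.027 with 13 positive, none called.

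Of 20 sarcomere genes none passed. Tcap, which anchors titin at the Z-disc, came nearest at -0.46 ± 0.13 (adjusted p = 0.164), with means of 1761 ± 301 CPM on the normal and 1298 ± 180 CPM on the Western diet. In the hypertrophy list, 9 of 15 were positive with a median of 0.048. Tnfrsf12a, the receptor of the cytokine TWEAK, was at 0.78 ± 0.26 (adjusted p = 0.318), and its highest values, 104 and 128 CPM, came from Western replicates 6 and 7. Without these 2 libraries Tnfrsf12a was at 0.325 ± 0.26 (adjusted p = 0.688). Of 29 genes of calcium handling and ion channels none passed, and the medians were -0.003 with all libraries and 0.071 without Western replicates 6 and 7. The channel subunit gene Kcnip2 was at -0.30 ± 0.09 (adjusted p = 0.217) and Kcnd3 at 0.36 ± 0.11 (0.239). Heat shock chaperones were negative in 22 of 31, with a median of -0.085. None of the 20 endoplasmic reticulum chaperones, 17 tested antioxidant NRF2 targets, 11 tested glucocorticoid targets, 33 interferon response genes and 7 MHC class II genes passed.

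**Figure D3:**
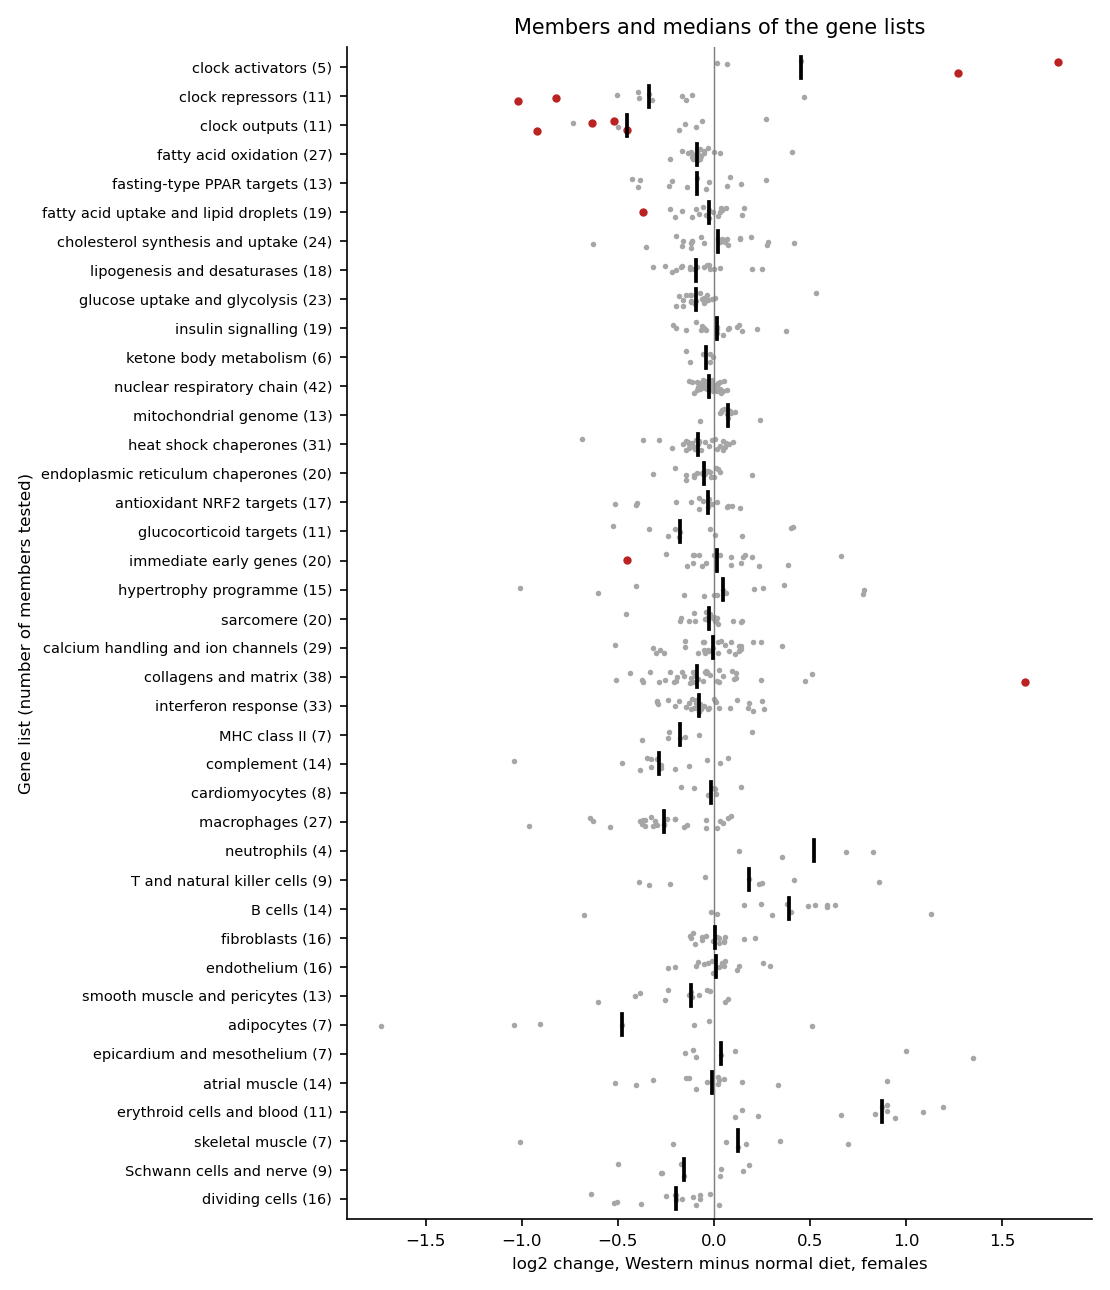
Log2 change, Western minus normal diet in females (horizontal axis), of the tested members of each of 40 gene lists. Each point is a gene, red points are called, and the black bar is the list's median. The red points lie in the 3 clock lists and at Dgat2, Ier3 and Spon2, and the medians of the fuel and structural lists lie close to 0.

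Markers of other cell types were read as lists, and none of their members was called. In whole tissue, fewer cells of a type and less RNA per cell cannot be told apart. Markers of red cells and blood, among them the haemoglobins, were positive in 11 of 11 with a median of 0.873. This came from the second run, with medians of 0.01 in the first and 1.53 in the second, and sums of 822 and 1141 CPM in Western replicates 6 and 7. Without these 2 libraries the median was 0.311, and its part in the changes of the 28 genes was not tested. Macrophage markers were negative in 22 of 27, with a median of -0.262, and their sums ranged from 465 to 1230 CPM on the normal and 357 to 685 CPM on the Western diet. The top value was normal replicate 10, and without normal replicates 9 and 10 the median was -0.036 with 18 of 27 negative. The macrophage surface gene Adgre1 was at -0.96 ± 0.33 (adjusted p = 0.332) with all libraries. Without normal replicate 10, where it stood at 90.5 CPM, it was at -0.21 (0.837). Complement genes had a median of -0.288, and -0.056 without normal replicates 9 and 10.

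Genes of dividing cells were negative in 15 of 16, with a median of -0.198, and positive in 12 of 16, with a median of 0.363, without normal replicates 9 and 10. B cell markers were positive in 12 of 14 with a median of 0.392, at summed levels of 13.5 to 52.8 CPM on the normal and 16.96 to 51.8 CPM on the Western diet. The 4 tested neutrophil markers had a median of 0.521 at sums under 10 CPM in every library. Fibroblast and endothelial markers were balanced, with 8 of 16 positive in each and medians of 0.003 and 0.011. The 7 tested adipocyte markers had a median of -0.479, with -0.957 in the first run and 0.046 in the second. Without normal replicate 3 the median was -0.218. Adipoq, the defining one, was at 0.222 ± 0.315 CPM on the normal and 0.0585 ± 0.0743 CPM on the Western diet. Smooth muscle and pericyte markers were negative in 11 of 13 with a median of -0.117.

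**Figure D4:**
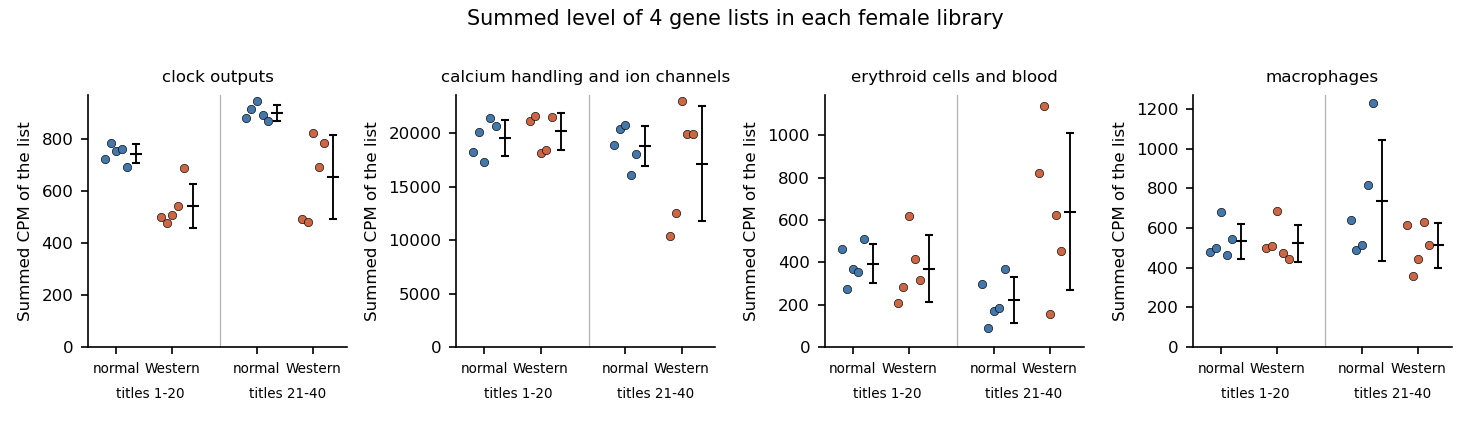
Summed CPM (vertical axis, from 0) of 4 gene lists in each of the 20 female libraries, by diet and title number, with the mean ± SD of 5. Clock outputs are lower on the Western diet within each run, whereas in the second run 2 Western libraries are low in calcium handling genes (10420 and 12540 CPM) and high in erythroid genes, and 1 normal library is high in macrophage genes.

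The summed clock outputs did not overlap between the diets within each run, though narrowly in the first. They were 692.6 to 786 CPM on the normal and 475 to 689.7 CPM on the Western diet in the first run, and 869.8 to 946 against 481 to 825 CPM in the second. The summed repressors separated in the first run, at 583 to 639 CPM on the normal and 446 to 568.4 CPM on the Western diet, but not in the second, at 554.5 to 632 against 371 to 606 CPM. With the runs pooled, both sums overlapped between the diets. Both lists hold called genes and were chosen with earlier results of these data known, so their sums are only a description. Within the second run, Western replicates 6 and 7 lay farthest from the normal libraries in Bmal1, Npas2, Tef and Usp2. Npas2 was 6.87 and 7.83 CPM there, against 1.19 to 2.99 CPM in the other 3 Western libraries of that run, which reached into the normal range.

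How many genes passed depended on single libraries. Leaving out 1 of the 20 at a time gave between 3 and 44 genes, and 12 libraries moved the count by over 1.5 times. It was 3 without Western replicate 7, 8 without Western 2, 10 without Western 6, 13 without Western 1 and 44 without Western 4. It was 9 without normal replicate 3, 12 without normal 4, 12 without normal 8, 14 without normal 1, 15 without normal 6, 15 without normal 9 and 16 without normal 2. Bmal1, Tspan4 and Ypel2 were the 3 genes that passed in every one of these 20 fits. Dbp, Tef, Npas2 and Spon2 were each lost in 1 of them, whereas Per2 was lost in 13, Mid1ip1 in 15 and Etl4 in 14. Without both Western replicates 6 and 7, only Bmal1 (1.35, adjusted p = 0.0257) and Tspan4 (-0.57, adjusted p = 0.000244) passed. All 28 kept their sign there, with a median size of 0.449. Npas2 was then at 0.84 (adjusted p = 0.399), Spon2 at 1.15 (0.399), Ciart at -0.90 (0.313), Dbp at -0.76 (0.202), Tef at -0.39 (0.313) and Ypel2 at 0.48 (0.0598). In that same fit Per2 was at -0.67, Usp2 at -0.33, Dgat2 at -0.28, Mthfd1l at -0.76 and Slc25a33 at -0.43 (adjusted p = 0.399 for each). Without normal replicates 9 and 10, 18 genes passed, 17 of them among the 28. Per2 did not pass there, at -0.825 (adjusted p = 0.0707).

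The same diets in males gave changes of opposite sign for 27 of the 28 genes. The share of opposite signs over all genes is not given here, so this count is only a description. Over all 15879 genes, 50.4% of changes were positive in females and 48.4% in males. The exception was Mtrfr, at -0.06 ± 0.07 in males. In males 194 genes were called between the diets (1.22% of those tested), 9 of them among the 28, each with the opposite sign. Bmal1 was 7.43 ± 2.09 CPM on the normal and 3.10 ± 2.499 CPM on the Western diet in males (SD, n = 10), a change of -1.32 ± 0.28 (adjusted p = 0.0079). In females its means were 3.24 ± 1.64 and 10.3 ± 4.42 CPM. Tspan4 rose in males from 22.7 ± 2.38 to 35.5 ± 6.06 CPM, by 0.64 ± 0.09 (adjusted p = 1.85e-06), where it fell in females from 30.9 ± 7.34 to 19.7 ± 3.31 CPM. Spon2 fell in males by 1.66 ± 0.33 (adjusted p = 0.00352), while Tef rose by 0.58 ± 0.10 (0.00105), Per2 by 0.85 ± 0.19 (0.0149) and Cys1 by 0.77 ± 0.14 (0.000681). Nr1d1, which was not called in females, was lower on the Western diet in males at -0.57 ± 0.13 (0.0153).

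A test of the female against the male diet change called 154 genes, 0.97% of those tested. The female minus male difference was positive in 89 of them and negative in 65. The difference was called for 24 of the 28, which is a description, since the female change that chose them is part of it. The female minus male difference was 3.11 ± 0.40 for Bmal1 (adjusted p = 1.6e-07), 3.28 ± 0.46 for Spon2 (1.75e-06) and 3.34 ± 0.68 for Fam124b (0.00251). It was -1.91 ± 0.30 for Mthfd1l (1.59e-05), -1.67 ± 0.27 for Per2 (4.31e-05) and -1.10 ± 0.15 for Tef (6.54e-07). Tspan4 had the smallest adjusted p, 3e-12, with a difference of -1.27 ± 0.12. Clock genes not called in females passed for the difference: Hlf at -1.46 ± 0.26 (adjusted p = 0.000351), Per3 at -1.10 ± 0.24 (0.00784), Wee1 at -1.03 ± 0.27 (0.0299), Cry1 at -0.74 ± 0.19 (0.0314), Cry2 at -0.67 ± 0.16 (0.0184) and Nfil3 at 0.74 ± 0.20 (0.0398). Outside the clock, Adamts4, a protease that cleaves proteoglycans, differed by 2.45 ± 0.57 (0.0129), with 1.35 ± 0.40 in females (0.199) and -1.10 ± 0.41 in males (0.168). The 4 of the 28 that did not pass were Rbms1 (0.0829), Coq10b (0.0672), Etl4 (0.103) and Mtrfr (0.254). Without Western replicates 6 and 7 the number called for the difference was 67, and Bmal1 stood at 2.66 (adjusted p = 3.55e-06).

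**Figure D5:**
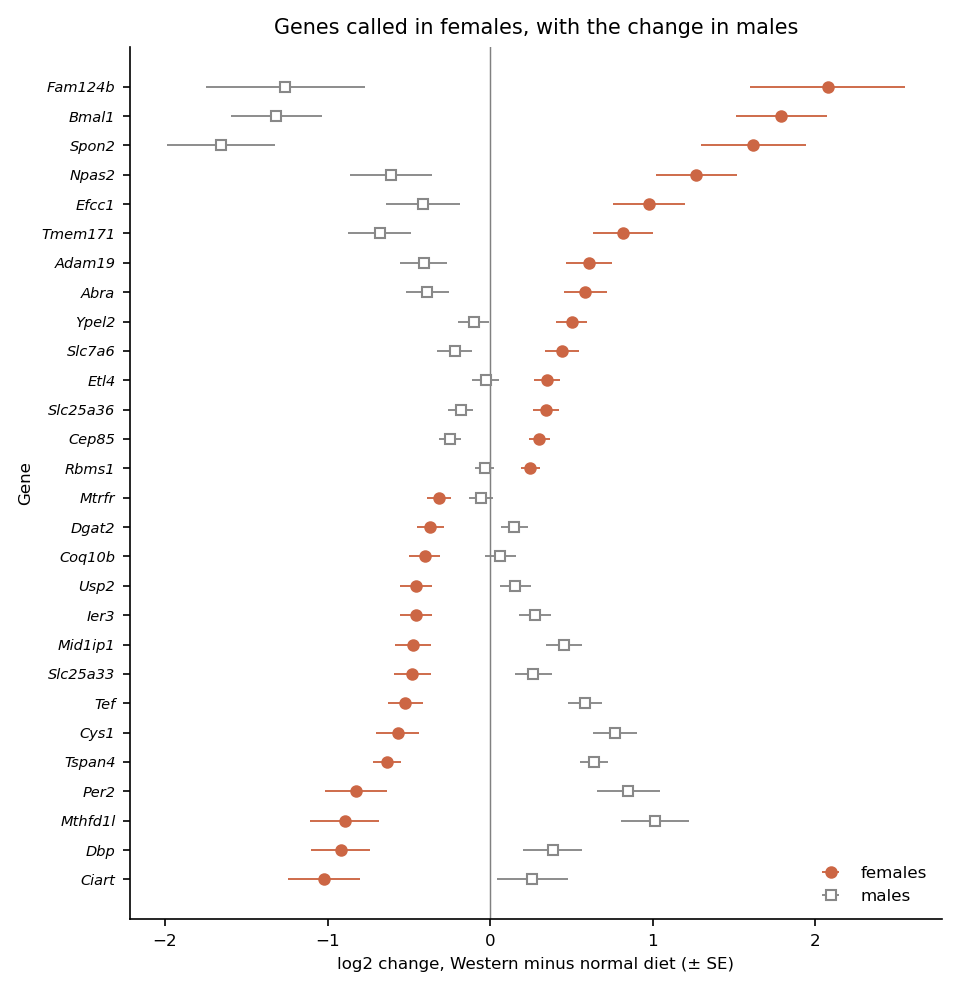
Log2 change, Western minus normal diet (horizontal axis), of the 28 genes called in females (filled circles) with the change of the same genes in males (open squares), each ± SE. In 27 of the 28 the 2 symbols lie on opposite sides of 0, with Mtrfr the exception. The share over all genes is not given here.

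The irradiated females, all on a normal diet, share their sham controls with the diet comparison, so their values are only set side by side. The mixed field at 50 cGy gave 0 called genes (0%, edgeR; 1293 at an unadjusted p under 0.05) and gamma rays at 100 cGy gave 4 (0.0252%). Bmal1 averaged 3.24 ± 1.64 CPM in the sham normal group, 7.17 ± 4.36 after the mixed field, 9.34 ± 5.47 after gamma rays and 10.3 ± 4.42 on the Western diet (SD, n = 10). Tspan4 averaged 30.9 ± 7.34, 24.4 ± 5.87, 22.2 ± 5.2 and 19.7 ± 3.31 CPM in the same order, and Dbp 128 ± 27.4, 97.7 ± 45.2, 75.7 ± 37.1 and 71.3 ± 30.8 CPM. The sham normal group was thus at the low end for Bmal1 and at the high end for Tspan4 and Dbp among the 4 female groups. Against the sham group the gamma libraries differed by 1.499 ± 0.28 for Bmal1 (adjusted p = 0.00573), -0.48 ± 0.09 for Tspan4 (0.00573) and -0.91 ± 0.18 for Dbp (0.0208).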

How the data were processed

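Left ventricular RNA of 80 mouse libraries was sequenced, 10 in each of 8 groups, and the authors deposited raw counts per gene for 56941 Ensembl IDs, which the tests used as deposited. Per the submitters' processing notes, FastQC 0.11.9, STAR 2.7.8a and the build GRCm39 were used; what counted the reads, whether by strand, and on which gene models is not given in the sources used here. Symbols, exons and transcript starts came from GENCODE (GRCm39), which matched 56323 IDs.

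One model was fitted to all 80 libraries in edgeR 4.0.16 (R 4.3.3) with TMM factors, filterByExpr on the 8 groups, 1 coefficient per group and a run term for each sex. Quasi-likelihood F tests were adjusted by Benjamini-Hochberg over the 15879 genes kept, and genes under 0.05 were called. A fit with 16 groups, split by run, gave the difference between runs. The SE is the log2 change divided by the square root of F, and CPM used TMM-adjusted totals. The procedure was also run on simulated data without differences between runs or sexes, a simpler setting than these libraries. No conclusion is drawn from it here. Totals were 14432521 to 19746067 counts, with overlapping ranges in the diets. Replicate pairs differed by more than sampling noise in a chi-square test, and all 20 libraries were kept. Replicates 1 to 5 of each group are the first run and 6 to 10 the second.

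Alternatives were DESeq2 1.42.0, limma voom 3.58.1, other size factors, no filter, other sets of libraries, no run term, each run alone, added terms for the clock or for the share of Rn18s-rs5, and leaving out each library. Those without the 2 pairs of libraries that stood apart were chosen after seeing the data. The members and gene lists were chosen with earlier results of these data known. Named genes were up to 15 of the largest rises and falls of called genes averaging 1 CPM or more, leaving out predicted, immune receptor and Y-linked genes and Xist. Every tested clock gene (1 is not reported here), up to 2 genes of smallest p in each other list, and up to 6 called genes per interaction (5 of smallest p where few were called) were added. Of the list members, 44 genes were too low to be tested.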

Additional observations from a re-analysis of the deposited data

Results flagged for a closer look

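There were 322 groups of 10 libraries, 1 per diet for each named gene and list sum. In 27 of them the highest or lowest library was far from the rest by Dixon's test at 95%. The nominal rate of 1 in 20 groups holds for independent Gaussian values. These groups share libraries and some hold CPM near 0, so that rate is no yardstick for the 27. Normal replicates 9 and 10 held 5 each. In normal replicate 10, CPM were 90.5 for Adgre1, 71.8 for Laptm5 and 14.98 for Slc13a3, the summed macrophage markers reached 1230 and the genes of fatty acid uptake and lipid droplets were lowest at 10610. In normal replicate 9, Tnfrsf12a was 74.7, Cyp4b1 58.5 and Elovl1 28.6 CPM, and the sums were 18550 for glucose uptake and glycolysis and 4340 for smooth muscle and pericytes.

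Western replicate 4 was highest in Akt1 (266 CPM), Fosb (6.81 CPM) and the summed immediate early genes (854 CPM). Western replicate 5 was highest in Klf15 (80.2 CPM) and in the summed fasting-type PPAR targets (1194 CPM). Western replicate 6 was highest in Cys1 (9.70 CPM), a gene called lower on this diet, and Western replicate 7 in the skeletal muscle sum (1422 CPM). Western replicate 8 was lowest in Blk (1.81 CPM) and Western replicate 9 highest in Thy1 (16.2 CPM). Normal replicate 5 was highest in Clock (42.3 CPM), Acta2 (157 CPM) and Pnpla3 (1.72 CPM). Normal replicate 8 was highest in Klf15 (73.5 CPM), normal replicate 7 in Fosb (2.67 CPM) and normal replicate 4 in Msln (0.503 CPM). Normal replicate 1 was highest in Adipoq (1.02 CPM) and Hes1 (42.3 CPM).

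The diet effect differed between the sexes, by the test of the difference itself, in 35 named genes, given here as female minus male log2 changes. For the genes called higher on the Western diet in females, the largest were 3.34 for Fam124b, 3.28 for Spon2 and 3.11 for Bmal1. Next came 1.88 for Npas2, 1.498 for Tmem171 and 1.39 for Efcc1. Smaller positive differences were 1.02 for Adam19, 0.97 for Abra, 0.66 for Slc7a6, 0.60 for Ypel2, 0.55 for Cep85 and 0.52 for Slc25a36. Outside the 28 called genes, Adamts4 had 2.45, Tnfrsf12a 1.51 and Nfil3 0.74.

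For the genes called lower on the Western diet in females, the difference was -1.91 for Mthfd1l, -1.67 for Per2 and -1.34 for Cys1. It was -1.30 for Dbp, -1.28 for Ciart, -1.27 for Tspan4 and -1.10 for Tef. It was -0.93 for Mid1ip1, -0.74 for Slc25a33, -0.73 for Ier3, -0.61 for Usp2 and -0.52 for Dgat2. Clock genes not called in females had -1.46 for Hlf, -1.10 for Per3, -1.03 for Wee1, -0.74 for Cry1 and -0.67 for Cry2. Of other lists, Gsta3 had -1.001, Tcap -0.74 and Herpud1 -0.60.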

How the results depend on the processing

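No paired analysis was possible because the compared groups share no title numbers and the replicate numbers follow accession order. The 28 genes called between the diets became 44 with DESeq2, 14 with only the 20 libraries and 3 without the run term. With only the 20 libraries 16 of the 28 lost their call, among them Npas2, Per2, Tef and Usp2. Bmal1, Ciart, Dbp and Tspan4 kept theirs. The first run alone gave 1 and the second 2. With 2 clock components as terms 7 genes passed, none of the 28 among them. The components are built from the 27 clock genes, 8 of which are among the 28, so the loss of those 8 calls follows from the construction. They were centred by sex and run but not by diet, so they can take up the diet difference in any gene. Whether the other lost calls, or the reversals with these terms, depend on the clock was not tested. The number of genes called between the diets was 2 without Western replicates 6 and 7 and 18 without normal replicates 9 and 10. Leaving out 1 library gave 3 to 44. The difference between the runs, with 0 genes, gave 1 with DESeq2, 1 without the filter and 1 with only the 40 females, and 0 to 1 leaving out 1 library. The 154 genes that differed between the sexes became 71 without the run term, 22 in the first run, 26 in the second, 232 with the clock components, 101 with the Rn18s-rs5 share and 67 without Western replicates 6 and 7; leaving out 1 library gave 103 to 158. Directions reversed for Spon2 (-0.00255) and for the sex difference of Adamts4 (-0.652) with the clock components; in the second run alone for Rora (-0.0947), Nr1d1 (0.29) and Rorb (0.247); in the first alone for Klf15 (0.0356); without Western replicates 6 and 7 for Nr1d2 (0.00326). Leaving out 1 library, Rorb was between -0.225 and 0.0189. The second run alone, the first alone and each leave-out rest on fewer libraries; the cause of the other shifts was not tested. The smallest change called with 10 libraries per diet was 0.247. This is not a limit of detection, since larger changes such as those of Adamts4 and Tnfrsf12a did not pass. Differences above as well as below it may go undetected at this number of libraries and depth.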
